A study of Gallus gallus with 60 samples.

Results

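The genes described here encode the proteins that hold neighbouring cells together in the chicken utricle: cadherins and protocadherins, the catenins that bind them, nectins, desmosome proteins, claudins, tight junction scaffolds and the PAR3 and PAR6 polarity proteins. They were chosen by gene name (CDH and a digit, PCDH, CLDN, TJP, OCLN, CTNNA, CTNNB, CTNND, DSG, DSC, DSP, JUP, PKP, PVRL, CGN, PARD3 and PARD6), leaving out the tip link genes CDH23 and PCDH15. Of 72 names that matched, 60 reached 1 RPKM (a read count divided by transcript length and by the alignments of the library) in at least 2 libraries and were tested, among 13862 rows tested in all. The other 12, which were CTNNA3, CLDN2, CLDN15, CLDN16, CLDN18, CLDN20, CLDN22, PKP1, CDH9, CDH10, CDH12 and CDH22, had medians of 0.39 RPKM or less. JUP and OCLN were not analysed here. The unit of the table was inferred from its values, since the table does not name it.

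The samples were dissected utricles, a vestibular organ of the inner ear, exposed to streptomycin for 24 h and left to recover (treated), and control utricles of the same 11 times. The times were 0, 24, 48, 54, 60, 66, 72, 96, 120, 144 and 168 h; the labels do not say from which moment they run, nor the age or strain of the birds, nor how many utricles make up a sample. There were 28 treated and 28 control samples: both arms held 4 samples at 24 h, 3 each at 72, 96, 120 and 168 h, and 2 at every other time. P-values therefore measure the spread between these samples, which may be partly technical.

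Classical cadherins join cells at adherens junctions by binding the same cadherin on the next cell, and beta- and alpha-catenins tie them to actin. The delta-catenin p120 keeps cadherins at the membrane. Desmosomes use desmogleins and desmocollins bound to plakophilins and desmoplakin, and tight junctions are strands of claudins anchored to ZO scaffolds (TJP genes) that seal the epithelium. In the utricle these junctions couple hair cells to the supporting cells around them, and in birds supporting cells divide or convert to replace lost hair cells while the epithelium stays closed. In bulk tissue, fewer cells of a type and less RNA per cell cannot be told apart.

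Depth was 1486991 to 40331879 alignments per library (median 21154441), and 7 libraries had under 5000000. All 12 tested hair cell markers fell over the 11 times: their summed level ran from 191.9 to 611.9 RPKM in treated samples (median 303.6), against 504.3 to 2326 RPKM in control samples (median 1550). By limma, stromal markers were called higher for 11 of 16, supporting cell markers for 5 of 10 and markers of Schwann cells and glia for 3 of 7, with no member of these 3 lists lower, also at an unadjusted p under 0.05. The part of these shifts in the results below was not tested except where a value is given.

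Averaged over the 11 times, treatment changed the adhesion genes in both directions. Of the 60, 16 rose (26.7%, against 18.5% of all rows tested) and 13 fell (21.7%, against 12.5%); an effect is the treated minus control difference of log2(RPKM + 0.5), called at a limma p under 0.05 after adjustment over all rows. With treated and control samples of the same number as a block, 20 rose and 15 fell (33.3% and 25%, against 25.7% and 16.1% of all rows in that fit), and without the samples numbered 2, 3 rose and 7 fell. After trimmed-mean scaling 13 rose and 15 fell, and after quantile normalization 16 rose and 15 fell. Which direction held more calls thus depended on the scaling. Scaling also moved the calls of all rows, as the window counts below show, so this is not read as a trait of the junction genes. The counts under other scaling and without the samples numbered 2 have no share over all rows beside them. The falls were larger than the rises: the called falls ran to -2.35 for PCDH8, while no rise exceeded the 0.53 of CDH8. The median over the 60 genes was 0.04, beside 0.06 over all rows. Roles went different ways, with 7 of 10 protocadherins lower and none higher (0 also at an unadjusted limma p under 0.05), and 4 of 8 type II cadherins higher and 1 lower. CDH7 is among the 16, and among the 4 type II cadherins called higher, and CLDN10 is among the 13. Both passed the level filter only through the arm in which they were higher, so their calls are not read as tests.

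**Figure D1:**
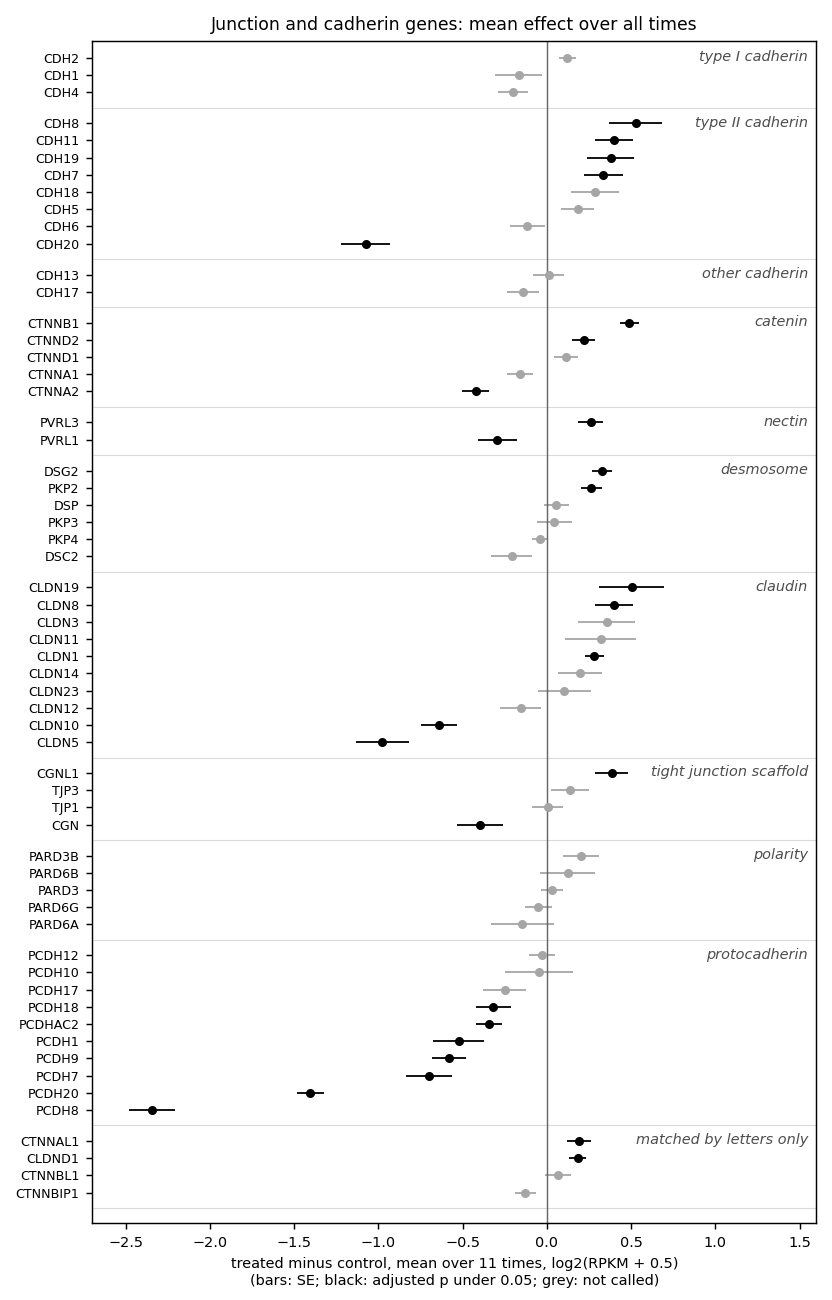
Mean treated minus control difference over the 11 times for 59 of the 60 genes, grouped by role, in log2(RPKM + 0.5); bars are SE and black points have an adjusted p under 0.05. The called falls lie mostly among the protocadherins, where PCDH8 and PCDH20 stand farthest from 0, and the called rises lie under 0.6.

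The genes with the highest levels were claudins, catenins and type I cadherins. Over the 60 libraries the median was 673 RPKM for CLDN3, 363 RPKM for CLDN1, 272 RPKM for CTNNB1, 176 RPKM for CTNNA1, 159 RPKM for CDH1 and 99.9 RPKM for CDH2. Setting these beside each other assumes that the values were divided by transcript length, which the check of the unit could not show. The changed protocadherins and CDH20 were below these, with the highest single sample at 45.2 RPKM for PCDH20.

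Protocadherins, cadherin relatives that mediate weak or selective contacts, held the largest changes. PCDH8, whose mammalian counterpart (arcadlin) is a synaptic protocadherin, ran from 0.108 to 3.72 RPKM in treated samples (median 0.394), against 2.27 to 13.3 RPKM in control samples (median 5.19). It was lower in the treated sample of all 28 pairs. The 2 arms did not overlap at 0 and 24 h or at 48 to 72 h, and only treated samples of 168 h, at 2.54 and 3.72 RPKM, passed the lowest control sample. PCDH8 fell by 2.35 ± 0.14 (SE; 5.09-fold, adjusted p = 1.93e-17).

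PCDH20, the protocadherin with the highest mean level here, ran from 5.58 to 17.6 RPKM in treated samples (median 12.5), against 16.7 to 45.2 RPKM in control samples (median 34.0). It fell by 1.41 ± 0.08 (2.65-fold, adjusted p = 1.08e-17), and was lower in 27 of 28 pairs, the exception being replicate 3 of 168 h, with 17.2 RPKM treated and 16.7 RPKM control. The arms did not overlap through 72 h. At 24 h the 4 treated samples had 5.58, 7.97, 6.79 and 10.6 RPKM, against 25.03, 31.4, 25.2 and 36.03 RPKM in control samples. At 168 h the treated samples had 17.6, 12.4 and 17.2 RPKM, against 36.4, 24.1 and 16.7 RPKM in control samples. The distance narrowed with time: the effect at 96 to 168 h was 0.74 ± 0.22 above that at 0 and 24 h (adjusted p = 0.0286), a call lost in 3 of 56 fits that left out 1 sample (up to adjusted p = 0.155, without control replicate 2 of 0 h).

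The calls of PCDH8 and PCDH20 held over all times and in each window under every one of the 68 alternatives. Both genes were lower in each window. Of 12 hair cell markers, 12 were lower at 0 and 24 h, 12 at 48 to 72 h and 9 at 96 to 168 h. The effect at 96 to 168 h was called above that at 0 and 24 h for 8 of the 12 markers. The same difference was called for PCDH20 but not for PCDH8. The effect of PCDH8 was -2.02 at 0 and 24 h, -2.60 at 48 to 72 h and -2.20 at 96 to 168 h. The summed hair cell level was 191.9 to 367.2 RPKM treated against 1441 to 2064 RPKM control at 0 and 24 h, and 299.9 to 611.9 RPKM against 504.3 to 1682 RPKM at 96 to 168 h. Whether loss of hair cell RNA accounts for the fall of either gene was not tested.

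Of the other protocadherins, PCDH9 averaged 2.30 ± 0.79 RPKM in treated samples and 3.63 ± 0.81 RPKM in control samples (SD, n = 28 each) and fell by 0.58 ± 0.10 (adjusted p = 1.85e-05). PCDH1 fell by 0.52 ± 0.15 (adjusted p = 0.00722). PCDHAC2 fell by 0.34 ± 0.08 (adjusted p = 0.000761) at levels near 1 RPKM; in mammals its constant exons are shared with the other alpha-cluster protocadherins, so its value is uncertain. PCDH18 fell by 0.32 ± 0.10 (adjusted p = 0.0171), although it was higher in the treated sample of 10 of 28 pairs. PCDH10, PCDH12 and PCDH17 had effects of -0.04, -0.03 and -0.25 and were not called.

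**Figure D2:**
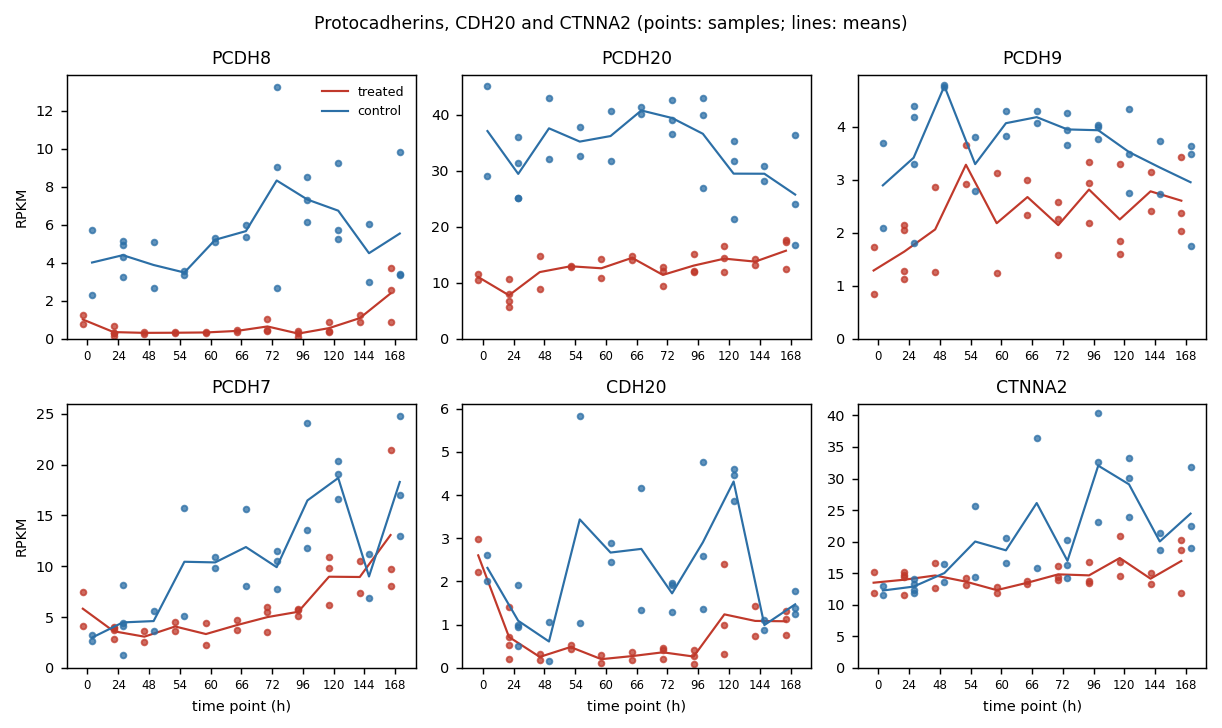
RPKM of PCDH8, PCDH20, PCDH9, PCDH7, CDH20 and CTNNA2 in each sample by time point in h (points) with group means (lines), treated in red and control in blue. PCDH8 and PCDH20 were separated through 72 h, while the control means of PCDH7, CDH20 and CTNNA2 lay above the treated means from 48 to 120 h, and those of CDH20 below them at 0 and 144 h.

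PCDH7 and CTNNA2 were higher in late than in early control utricles and lower in treated than in control utricles at 96 to 168 h. PCDH7 (NF-protocadherin in frog) had 4.005, 2.79, 3.93 and 3.68 RPKM in treated samples of 24 h, against 4.36, 1.26, 8.18 and 4.08 RPKM in control samples, so the arms overlapped. At 96 h it had 5.78, 5.69 and 5.07 RPKM in treated samples, against 11.8, 24.1 and 13.5 RPKM in control samples, with no overlap. The distance was not seen at every time: PCDH7 averaged 5.82 RPKM in treated samples and 2.97 RPKM in control samples of 0 h, 8.94 RPKM and 8.99 RPKM at 144 h and 13.1 RPKM and 18.3 RPKM at 168 h. Among control samples PCDH7 was 1.97 ± 0.26 higher at 96 to 168 h than at 0 and 24 h (3.92-fold, adjusted p = 7.05e-07). Its treatment effect over all times was -0.70 ± 0.14 (adjusted p = 7.65e-05). The effect at 96 to 168 h lay 1.12 ± 0.37 below that at 0 and 24 h (adjusted p = 0.0492), but this call was lost in 40 of 56 fits that left out 1 sample (up to adjusted p = 0.253, without treated replicate 1 of 0 h).

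CTNNA2, the alpha-catenin best known from neurons, followed the same course at a higher level. CTNNA2 ran from 11.6 to 20.9 RPKM over all treated samples (median 14.3), against 11.5 to 40.4 RPKM over all control samples (median 18.9). The treated range thus sat inside the lower part of the control range. At 96 h treated samples had 13.4, 16.8 and 13.8 RPKM, against 23.1, 32.7 and 40.4 RPKM in control samples. CTNNA2 fell by 0.42 ± 0.08 over all times (adjusted p = 4.95e-05) and by 0.70 ± 0.12 at 96 to 168 h (adjusted p = 7.24e-05), while its effect at 0 and 24 h was 0.12 ± 0.18 (adjusted p = 0.749). The late effect lay 0.82 ± 0.22 below the early one (adjusted p = 0.0139); 2 of 56 fits that left out 1 sample lost this call (up to adjusted p = 0.104, without treated replicate 1 of 0 h). In control samples CTNNA2 was 1.002 ± 0.153 higher at 96 to 168 h than at 0 and 24 h (adjusted p = 8.62e-06).

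CDH20, a type II cadherin, had its highest treated mean at 0 h (2.60 RPKM) and only 0.253 RPKM at 48 h, against 2.31 and 0.610 RPKM in control samples. At 60 h it had 0.289 and 0.113 RPKM in treated samples, against 2.45 and 2.89 RPKM in control samples. At 120 h it had 2.41, 0.319 and 0.985 RPKM treated, against 4.47, 3.87 and 4.61 RPKM control. At 0 h the arms were alike in range, at 2.21 and 2.99 RPKM treated and 2.01 and 2.62 RPKM control, and at 144 h they overlapped at 0.744 and 1.43 RPKM treated and 1.11 and 0.873 RPKM control. Control samples themselves differed widely at single times: at 54 h they had 1.04 and 5.83 RPKM. At 66 h they were wide for PCDH7 (11.9 ± 5.35 RPKM, SD, n = 2), CTNNA2 (26.1 ± 14.6 RPKM) and DSC2 (4.28 ± 3.41 RPKM) too. Without control replicate 2 of 66 h, the effect at 48 to 72 h went from -1.52 to -1.38 for CDH20, from -0.42 to -0.30 for CTNNA2 and from -0.63 to -0.47 for DSC2. Without control replicate 2 of 54 h, that of PCDH7 went from -1.08 to -0.93. CDH20 fell by 1.08 ± 0.14 over all times (adjusted p = 1.3e-07) and by 1.52 ± 0.23 at 48 to 72 h (adjusted p = 1.63e-06).

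DSC2 is a desmocollin. At 24 h it had 3.38, 1.59, 1.88 and 1.47 RPKM in treated samples, against 0.455, 0.785, 0.740 and 1.48 RPKM in control samples. At 66 h it had 1.33 and 1.66 RPKM in treated samples, against 1.86 and 6.69 RPKM in control samples. DSC2 rose by 0.81 ± 0.28 at 0 and 24 h (adjusted p = 0.0469), a call lost in 34 of 68 alternatives, trimmed-mean scaling and quantile normalization among them (adjusted p up to 0.53, without the samples numbered 1), and fell by 0.63 ± 0.19 at 48 to 72 h (adjusted p = 0.0162), a call lost in 2 of 56 (up to adjusted p = 0.0904, without control replicate 2 of 66 h). Over all 68 alternatives the call at 48 to 72 h was lost in 4, and the effect ran from -0.96 to -0.28. The late minus early difference of DSC2 was -0.99 ± 0.34 (adjusted p = 0.0601, blocked 0.0426). Its means at 168 h were 2.03 RPKM in treated samples and 1.38 RPKM in control samples.

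Control samples were compared between times on their own. At 96 to 168 h against 0 and 24 h, 7 of the 60 genes were higher (11.7%, against 7.24% of all rows) and 6 lower (10%, against 12.2%); after trimmed-mean scaling these were 11 and 4 (all rows 9.23% and 9.38%). The higher ones were PCDH7, PCDH18 (1.26 ± 0.20), CTNNA2, PCDH17 (0.80 ± 0.25), PCDH12 (0.67 ± 0.15), DSP (0.60 ± 0.14) and PKP3 (0.55 ± 0.20), so 4 were protocadherins. Lower ones included CDH13 (-0.90 ± 0.17), CTNNAL1 (-0.74 ± 0.13), CDH11 (-0.61 ± 0.21), CTNNBL1 (-0.43 ± 0.15) and CTNNB1 (-0.39 ± 0.11). Leaving out 1 sample lost the call of PKP3 in 35 of 56 fits, those of CTNNBL1 and CDH11 in 7 each, that of PCDH17 in 2 and that of CTNNB1 in 1 (adjusted p up to 0.3). The call of CDH11 was also lost under trimmed-mean scaling, under quantile normalization and with libraries of 5000000 alignments or more alone. With those libraries alone the calls of CTNNBL1 and PKP3 were lost too, and that of PKP3 also without the filter on low values. That of PCDH17 was lost under quantile normalization. Under other settings the control difference of CDH11 ran from -0.80 to -0.33. The control samples of 24 h include 1 at 42.0 RPKM of CDH11, described below. An F test over the 11 control means called 8 of the 60 (13.3%, against 6.46% of all rows): CTNNAL1, PCDH7, CTNNA2, PCDH18, DSC2, CDH13, PCDH12 and CDH20. Stromal markers also differed between control times, with 7 of 16 higher and 1 lower at 96 to 168 h; the part of this in the protocadherin rise was not tested.

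Among catenins, beta-catenin had the highest level and, over all times, the largest effect. CTNNB1, which links cadherins to alpha-catenin and is also the transcriptional effector of Wnt signalling, ran from 411 to 517 RPKM in treated samples of 0 and 24 h (median 489), against 263 to 347 RPKM in control samples (median 305), with no overlap. At 96 to 168 h it ran from 160 to 359 RPKM in treated samples (median 264), against 195 to 259 RPKM in control samples (median 228), and the treated range enclosed the control range. CTNNB1 rose by 0.49 ± 0.06 over all times (1.404-fold, adjusted p = 3.35e-09), by 0.71 ± 0.12 at 0 and 24 h (adjusted p = 5.85e-05) and by 0.69 ± 0.09 at 48 to 72 h (adjusted p = 6.12e-08). At 96 to 168 h the effect was 0.13 ± 0.09 and was not called. The late minus early difference was -0.58 ± 0.15 (adjusted p = 0.013); 2 of 56 fits that left out 1 sample lost it (up to adjusted p = 0.0629, without control replicate 1 of 0 h), as did quantile normalization (adjusted p = 0.0689).

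CTNNA1, CTNND1 and CTNND2 moved less over all times, and CTNNA2 is described above. The late minus early difference ran from -0.82 to -0.06 over the 5 catenins (median -0.46, against -0.03 over all rows), with CTNNA2 and CTNNB1 called. CTNNA1, the epithelial alpha-catenin, averaged 170.4 ± 41.7 RPKM in treated samples and 188 ± 37.0 RPKM in control samples, an effect of -0.16 ± 0.08 (adjusted p = 0.106; blocked 0.0133). CTNND1, p120-catenin, which keeps cadherins at the membrane, had an effect of 0.11 ± 0.07 (adjusted p = 0.243; blocked 0.0443). CTNND2, its neural relative, rose by 0.22 ± 0.07 (adjusted p = 0.0148) and was named after its value was seen.

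The 3 type I cadherins gave no call by limma over all times or in any window without the block; at an unadjusted p under 0.05, 1 was higher and 1 lower over all times. CDH1 (E-cadherin) ran from 103 to 357 RPKM in treated samples (median 151), against 102 to 452 RPKM in control samples (median 174). Its ranges overlapped almost fully. Its effect was -0.17 ± 0.14 (adjusted p = 0.396). CDH2 (N-cadherin) ran from 87.9 to 170.1 RPKM in treated samples (median 104), against 72.3 to 128 RPKM in control samples (median 94.4), with an effect of 0.12 ± 0.05 (adjusted p = 0.0613; blocked 0.00675), and was higher in the treated sample of 24 of 28 pairs. CDH4 (R-cadherin), named after its values were seen, was higher in only 4 of 28 pairs, with an effect of -0.20 ± 0.09 (adjusted p = 0.0925; blocked 0.00106).

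Of the type II cadherins other than CDH20, CDH8, CDH11 and CDH19 rose over all times. CDH11, a cadherin of mesenchymal cells, ran from 10.04 to 17.2 RPKM in treated samples of 96 to 168 h (median 12.1), against 4.36 to 11.8 RPKM in control samples (median 8.93), with an overlap between 10.04 and 11.8 RPKM. It rose by 0.40 ± 0.11 over all times (adjusted p = 0.00473) and by 0.60 ± 0.17 at 96 to 168 h (adjusted p = 0.014; 0.0528 when treated replicate 1 of 144 h was left out). One control utricle sample of 24 h, replicate 2, stood apart at 42.0 RPKM from the other 3 of that group, at 9.72, 10.7 and 11.3 RPKM. With all samples the effect of CDH11 at 0 and 24 h was not called. Only 1 of 68 alternatives called it, the fit without that control sample (effect 0.55, limma adjusted p = 0.0493).

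CDH7, which marks migrating neural crest in chick, ran from 0.0629 to 2.61 RPKM in treated samples (median 0.477), against at most 1.07 RPKM in control samples (median 0.255). At 144 h it had 1.03 and 1.57 RPKM in treated samples, against 0.399 and 0.439 RPKM in control samples. It reached 1 RPKM in 5 treated libraries and 1 control library and so passed the filter through the treated arm alone; its effects of 0.33 ± 0.12 over all times and 0.72 ± 0.18 at 96 to 168 h are given as a description. CDH19, a cadherin of Schwann cell precursors, rose by 0.68 ± 0.22 at 96 to 168 h (adjusted p = 0.029), lost in 7 of 56 fits without 1 sample (up to adjusted p = 0.109, without treated replicate 2 of 144 h). Its rise over all times was 0.38 ± 0.14 (adjusted p = 0.0358), lost in 14 of 56 (up to adjusted p = 0.0711, without treated replicate 2 of 144 h). CDH19 had a median of 0.73 RPKM and reached 1 RPKM in 21 of 60 libraries. Both of its calls were also lost with a pseudocount of 0.1, and that over all times under trimmed-mean scaling as well. Under other settings its late effect ran from 0.27 to 0.99. CDH8 rose by 0.53 ± 0.16 over all times (adjusted p = 0.00867). CDH6 and CDH18 had effects of -0.12 and 0.29 and were not called (CDH18 blocked adjusted p = 0.0412).

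The stromal and glial marker lists moved in the same late window, and so did other lists. At 96 to 168 h, 11 of 16 stromal markers were higher, with summed levels of 291.8 to 1543 RPKM in treated samples (median 721.6) and 153.1 to 1083 RPKM in control samples (median 433.9). Of 7 markers of Schwann cells and glia, a list that includes CDH19, 3 were higher, with sums of 174.8 to 301.7 RPKM in treated samples and 52.74 to 186.1 RPKM in control samples. In the same window supporting cell markers were higher for 6 of 10, cartilage markers for 3 of 6 and melanocyte markers for 2 of 5. Leukocyte markers were higher for 3 of 8 and lower for 1, and hair cell markers were lower for 9 of 12. The part of any of these lists in the rises of CDH11 and CDH19 and in the levels of CDH7 was not tested.

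**Figure D3:**
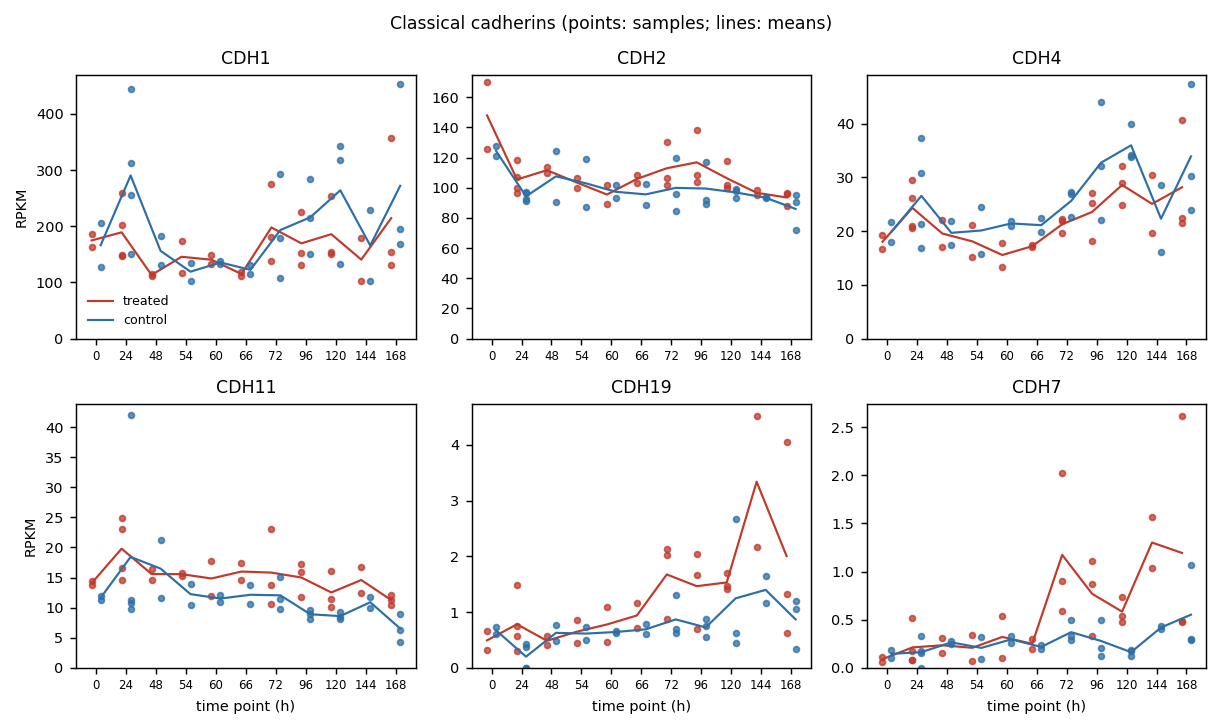
RPKM of CDH1, CDH2, CDH4, CDH11, CDH19 and CDH7 in each sample by time point in h (points) with group means (lines), treated in red and control in blue. CDH1, CDH2 and CDH4 overlapped between arms, while CDH11, CDH19 and CDH7 were higher in most treated samples from 72 h; the control sample at 42.0 RPKM stands out for CDH11 at 24 h.

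Of the endothelial junction genes, CLDN5 fell. CLDN5, the main claudin of blood vessel endothelium, was lower in the treated sample of all 28 pairs: it ran from 7.54 to 75.0 RPKM in treated samples (median 23.3), against 18.9 to 136 RPKM in control samples (median 42.0). At 168 h it had 64.9, 75.0 and 23.9 RPKM in treated samples, against 131, 136 and 35.1 RPKM in control samples, so replicate 3 was low in both arms. CLDN5 fell by 0.98 ± 0.16 (1.97-fold, adjusted p = 3.96e-06). CDH5 (VE-cadherin), the endothelial cadherin, was low throughout, at 0.347 to 1.71 RPKM in treated samples of 96 to 168 h (median 0.694) and 0.0567 to 0.670 RPKM in control samples (median 0.218). It reached 1 RPKM in 2 treated libraries and no control library, so it passed the filter through the treated arm alone and its late effect of 0.59 ± 0.15 is given as a description; under other settings this ran from 0.36 to 1.08. Of the 8 endothelial markers tested, a list that holds both genes, CLDN5 and FLT1 (-0.62, adjusted p = 6.49e-06) were lower over all times by limma and none was higher, with 1 higher at an unadjusted p under 0.05. The others had effects of 0.30 (EGFL7), 0.18 (CDH5), 0.14 (SOX18), 0.04 (KDR), 0.02 (ERG) and -0.06 (ESAM). TEK, TIE1, VWF and ROBO4 did not pass the level filter and were not tested (medians 0.59, 0.35, 0.23 and 0.17 RPKM). Medians were 32.4 RPKM for CLDN5, 32.9 RPKM for EGFL7 and 5.53 RPKM for FLT1. They were lower for ESAM (1.26 RPKM), ERG (1.22 RPKM), KDR (0.55 RPKM), CDH5 (0.34 RPKM) and SOX18 (0.095 RPKM). Whether the RNA of CLDN5 came from endothelium was not tested.

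Of the abundant claudins of epithelia, CLDN1 rose and CLDN3 was not called. CLDN1 ran from 317 to 552 RPKM in treated samples (median 409.5), against 286 to 491 RPKM in control samples (median 339), and was higher in the treated sample of 27 of 28 pairs. It rose by 0.28 ± 0.06 (1.21-fold, adjusted p = 0.000113), a call held in all 56 fits without 1 sample. CLDN3 averaged 780 ± 286 RPKM in treated samples and 680.4 ± 400.4 RPKM in control samples, and its effect of 0.36 ± 0.17 was called only with the block (adjusted p = 0.112; blocked 0.00505). CLDN8 rose by 0.40 ± 0.11 (adjusted p = 0.00519) and CLDN19 by 0.50 ± 0.19 (adjusted p = 0.0405). The call of CLDN19 was lost in 21 of 56 fits without 1 sample (effect 0.44 without treated replicate 1 of 144 h). That call was also lost without the filter on low values and under trimmed-mean scaling.

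CLDN10, a claudin that forms ion-selective pores, was at low levels. It ran from 0.114 to 0.440 RPKM in treated samples of 48 to 72 h (median 0.333), against 0.627 to 1.397 RPKM in control samples (median 1.07), with no overlap. It reached 1 RPKM in 1 treated library and 12 control libraries and so passed the filter through the control arm alone; its effects of -0.64 ± 0.11 over all times and -0.92 ± 0.24 at 0 and 24 h are given as a description. CLDN11, the claudin of myelin and of a cochlear barrier, had an effect of 0.32 ± 0.21 (adjusted p = 0.275), and CLDN12, CLDN14 and CLDN23 were not called either.

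Of the tight junction scaffolds, TJP1 (ZO-1) averaged 30.3 ± 6.49 RPKM in treated samples and 30.4 ± 8.09 RPKM in control samples, an effect of 0.00 ± 0.09 over all times. At 0 and 24 h its effect was 0.52 ± 0.20 (adjusted p = 0.0842; blocked 0.0299), with means of 46.0 RPKM in treated samples and 27.2 RPKM in control samples at 0 h, while at 60 h the means were 22.9 RPKM and 33.8 RPKM. TJP3 (ZO-3) had an effect of 0.14 ± 0.11 and was not called. The cingulins, which bind ZO proteins and actomyosin, split: CGN fell by 0.40 ± 0.13 (adjusted p = 0.0213) and was lower in 25 of 28 pairs, and CGNL1 rose by 0.39 ± 0.10 (adjusted p = 0.00188).

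Desmosome genes rose where they were called over all times. DSG2, a desmoglein, had 119 and 94.2 RPKM in treated samples of 0 h, against 48.0 and 55.5 RPKM in control samples. At 24 h it had 72.5, 65.7, 76.0 and 81.0 RPKM in treated samples, against 50.9, 39.6, 48.4 and 61.4 RPKM in control samples, again with no overlap. At 168 h it had 41.0, 39.9 and 56.8 RPKM treated and 41.4, 39.2 and 45.4 RPKM control, and the arms overlapped. DSG2 rose by 0.80 ± 0.13 at 0 and 24 h (adjusted p = 2.33e-05) and by 0.33 ± 0.06 over all times (adjusted p = 2.99e-05). The late minus early difference of -0.74 ± 0.16 was called (adjusted p = 0.00345) and held in all 56 fits without 1 sample.

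PKP2, a plakophilin, rose by 0.26 ± 0.06 over all times (adjusted p = 0.0012) and was higher in 25 of 28 pairs. DSP, desmoplakin, averaged 51.9 ± 12.6 RPKM in treated samples and 49.0 ± 10.6 RPKM in control samples, an effect of 0.06 ± 0.07 (adjusted p = 0.619). PKP3 and PKP4 were not called.

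**Figure D4:**
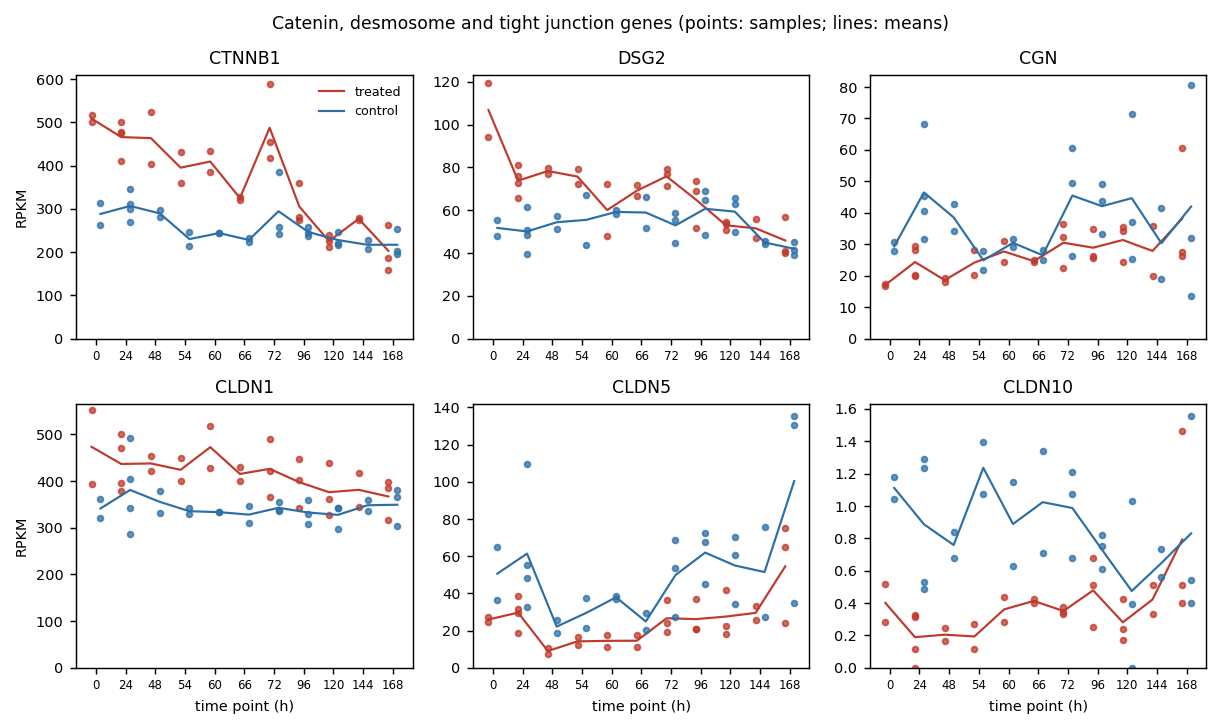
RPKM of CTNNB1, DSG2, CGN, CLDN1, CLDN5 and CLDN10 in each sample by time point in h (points) with group means (lines), treated in red and control in blue. CTNNB1 and DSG2 were separated at 0 and 24 h, overlapped the controls at 120 and 168 h and did not overlap them at 144 h; CLDN5 means were lower in treated utricles at every time.

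The nectins, immunoglobulin-like adhesion proteins that join unlike cells, moved in opposite directions. PVRL3 rose by 0.26 ± 0.07 (adjusted p = 0.0047), with 17.6 ± 2.97 RPKM in treated samples and 14.7 ± 2.52 RPKM in control samples. PVRL1 fell by 0.30 ± 0.12 (adjusted p = 0.0473), but 38 of 56 fits without 1 sample lost the call (up to adjusted p = 0.106, without control replicate 1 of 144 h). None of the 5 polarity genes was called by limma over all times or in a window, with 0 over all times and 2 at 0 and 24 h at an unadjusted p under 0.05. PARD6B had the largest range among them, from 9.55 to 75.2 RPKM in treated samples and 7.88 to 45.4 RPKM in control samples, with an effect of 0.82 ± 0.36 at 0 and 24 h (adjusted p = 0.145; blocked 0.00203) and -0.42 ± 0.26 at 96 to 168 h (adjusted p = 0.297; blocked 0.0154). PARD3 had an effect of 0.42 ± 0.15 at 0 and 24 h (adjusted p = 0.0579; blocked 0.0255). PARD3B, PARD6A and PARD6G were not called.

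Of 4 genes matched by their letters but not part of a junction by name, CLDND1, a claudin-domain protein, rose by 0.18 ± 0.05 (adjusted p = 0.00377) and CTNNAL1, an alpha-catenin-like protein, by 0.19 ± 0.07 (adjusted p = 0.0327; lost in 8 of 56 fits without 1 sample, up to 0.0726 without treated replicate 2 of 144 h). The call of CTNNAL1 was also lost under trimmed-mean scaling and quantile normalization. CTNNBIP1, an inhibitor of beta-catenin, and CTNNBL1 were not called. The non-classical cadherins CDH13 and CDH17 had effects of 0.01 ± 0.09 and -0.14 ± 0.09.

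By window, with CDH5, CDH7 and CLDN10 counted as called, 4 of the 60 rose and 4 fell at 0 and 24 h (6.67% each, against 6.77% and 5.98% of all rows), shares near those of all rows. With the block 11 rose and 8 fell (18.3% and 13.3%, against 14.2% and 8.85% of all rows in that fit). After trimmed-mean scaling the counts were 3 and 6 (all rows 4.45% and 6.87%) and after quantile normalization 2 and 7 (all rows 4.36% and 6.27%). At 48 to 72 h, 8 rose (13.3%, against 9.13%) and 10 fell (16.7%, against 10.2%), with 13 and 15 in the blocked fit (all rows 15.1% and 13.5%). At 96 to 168 h, 7 rose (11.7%, against 9.65%) and 6 fell (10%, against 7.11%). The 7 include CDH5 and CDH7, whose calls are not read as tests, so their share is not read as above that of all rows. CLDN10 is likewise among the genes that fell at 0 and 24 h and at 48 to 72 h. For 96 to 168 h the blocked fit gave 8 and 10 (all rows 15.8% and 11.3%). Trimmed-mean scaling gave 4 and 7 (8.09% and 8.67%) and quantile normalization 4 and 6 (8.87% and 7.88%). Between the late and early effects, PCDH20 differed upward (1 of 60, 1.67%, against 3.9% of rows) and DSG2, CTNNB1, CTNNA2 and PCDH7 downward (6.67%, against 4.44%), with 3 and 10 blocked (all rows 8.31% and 10.5%) and 2 and 3 after quantile normalization (3.77% and 3.75%).

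At single times, where 2 to 4 samples per arm were compared, few genes were called. At 0 h 3 of 60 were called (5%, against 2.56% of rows), at 24 h 6 (10%, against 12.9%), at 48 h 2 (3.33%, against 3.38%), at 54 h 3 (5%, against 2.59%) and at 60 h 4 (6.67%, against 4.2%). At 66 h 3 were called (5%, against 2.85%), at 72 h 3 (5%, against 4.3%), at 96 h 5 (8.33%, against 5.14%) and at 120 h 4 (6.67%, against 2.66%). At 144 and 168 h limma called none of the 60, where 0.519% and 1.41% of rows were called. At an unadjusted p under 0.05 there were 3 and 7 genes, and the blocked fit called 1 and 2. These unadjusted and blocked counts have no share over all rows beside them and are given as a description. PCDH20 was called at every time from 0 to 120 h and PCDH8 at every time from 24 to 120 h. CTNNB1 was called at 0, 24, 54, 60 and 72 h and CDH20 at 60, 66, 96 and 120 h. An F test of whether the effect differed among the 11 times called none of the 60, against 1.48% of rows. At an unadjusted p under 0.05 it gave 8 of the 60, against 1198 of the 13862 rows.

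**Figure D5:**
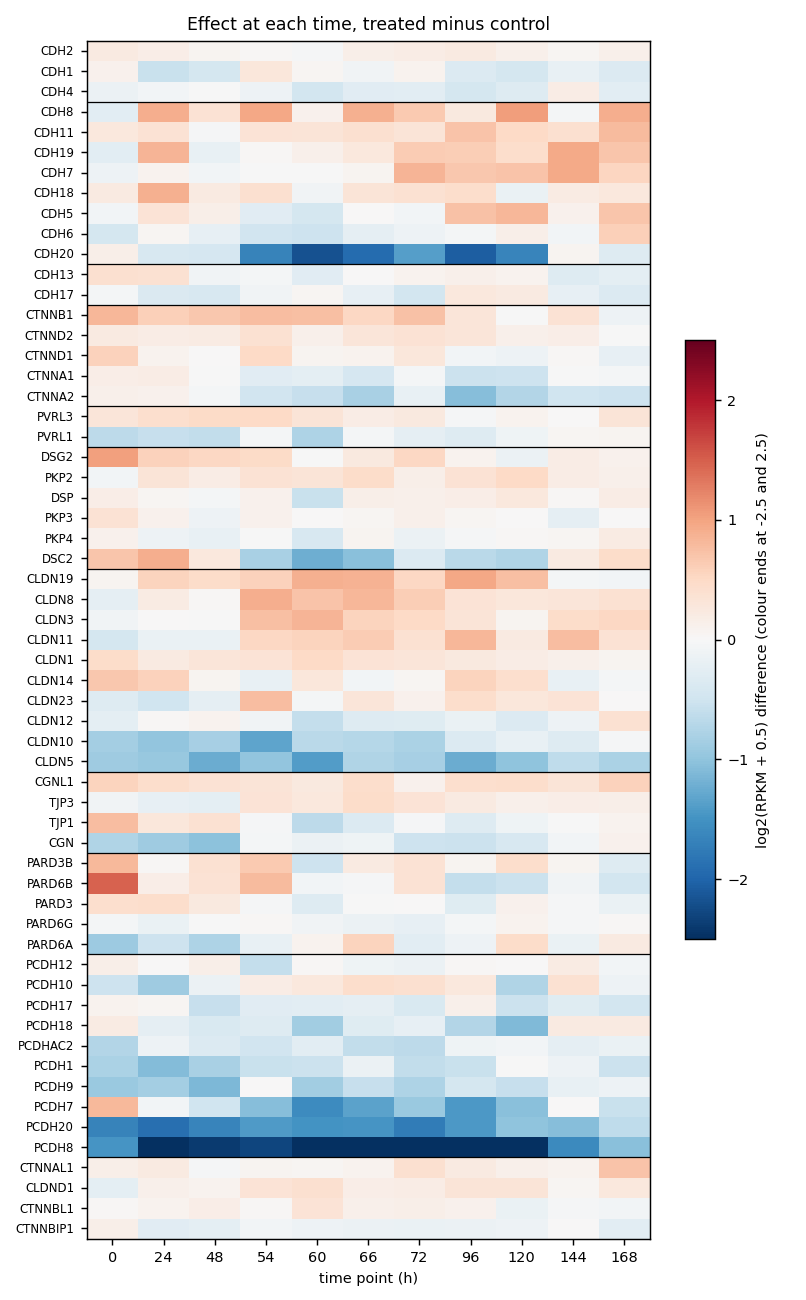
Treated minus control difference in log2(RPKM + 0.5) at each time point in h for 59 of the 60 genes, grouped by role as in the plot of mean effects; red is higher and blue lower in treated utricles, and the colour scale ends at -2.5 and 2.5. PCDH8 and PCDH20 are blue at all 11 times, CTNNB1 is red from 0 to 72 h, DSG2 is reddest at 0 h, and CDH20, PCDH7 and DSC2 are bluest from 54 to 120 h.

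Genes that act with these were listed apart from the members: other adhesion proteins, polarity complexes, actin linkers and regulators of epithelial junctions. Of 63 listed, 50 were tested, and over all times 16 rose and 3 fell (32% and 6% of them, against the 18.5% and 12.5% of all rows given above). CADM2, a synaptic adhesion molecule, fell by 1.30 ± 0.10. The junction proteins JAM3 (0.28 ± 0.07), EPCAM (0.20 ± 0.06) and CADM1 (0.19 ± 0.07), the actin linkers SHROOM3 (0.41 ± 0.05) and LIMA1 (0.43 ± 0.07) and the polarity proteins SCRIB (0.28 ± 0.09) and CRB1 (0.32 ± 0.08) rose. VCL, vinculin, with 0.08 ± 0.16, and the afadin gene MLLT4, with -0.02 ± 0.07, were not called.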

How the data were processed

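The authors deposited 1 table with a column per library, whose RPKM values they made before deposit from aligned reads; per the submitters' processing notes TopHat 1.4.0 and Partek 6.6 took part, with no role stated. The table does not name its unit. RPKM was inferred because each value times its library's alignments fell on whole steps (within 0.05) for 53.2% of 1727 rows checked, against 0% without that multiplication. Each row was checked against its own step, so the check bears on the division by alignments. It cannot show a division by transcript length, which was assumed. Genome build, annotation and counting rules were not given in the sources used, and no coordinate or sequence is printed. A further 2 columns, which no sample label matched, were left out. A decimal in a label's replicate number was taken to mark a second library of the same sample, and the mean of the log2 values was used (60 libraries, 56 samples). The model used log2(RPKM + 0.5), on which the folds of low genes come out too small, and 13862 rows with 1 RPKM or more in at least 2 libraries were fitted with limma 3.58.1 (R 4.3.3; intensity trend; 22 group means, 34 residual degrees of freedom). Windows weigh each time equally. Calls are Benjamini-Hochberg adjusted p-values under 0.05, computed across every row tested. The fit was tested on simulated data.

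Same-numbered treated and control samples deviated together, with r from 0.117 to 0.71 in the 16 pairs at times with 3 or more. At times with 2 samples per arm both pairs have the same r by construction and hold only 1 value. Counted apart, r was above 0.1 in 26 of all 28 pairs, the 2 others being those of 60 h at 0.0754. The numbers were thus taken to pair the samples, which the labels do not state. The blocked fit has 17 residual degrees of freedom. Alternatives changed the pseudocount, the filter, the scaling, the block, the repeat libraries, the depth and the samples kept. The members and lists were chosen with earlier results of these data known. Genes named are the called members (at most 25 per comparison, by size), set anchor genes of each junction type and the member of highest mean level in each role; others were named after their values were seen. For 1 of the 60 genes no values are reported here; it stays in the counts.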

Additional observations from a re-analysis of the deposited data

Results flagged for a closer look

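In 4 groups of the 120 looked at (60 genes in both arms at 24 h, the one time with 4 samples per arm) a single sample lay far from the other 3; chance flags about 1 in 20 groups, or 6 of 120. CDH11 had 42.01 RPKM in control replicate 2, a library of 2046765 alignments, against 9.725 to 11.27 RPKM in the other control samples. PCDH10 had 0.6655 RPKM in treated replicate 1, a library of 3447741 alignments, against 2.995 to 3.624 RPKM. Both libraries were among those under 5000000 alignments. CLDND1 had 46.43 RPKM in control replicate 3, against 39.96 to 40.86 RPKM. CTNNBIP1 had 63.88 RPKM in control replicate 4, against 47.59 to 48.7 RPKM.

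The treatment effect at 96 to 168 h differed from that at 0 and 24 h, by the limma contrast of the 2 effects, for 5 genes. The difference on the log2 scale was -1.124 for PCDH7, -0.8191 for CTNNA2, -0.7397 for DSG2, -0.5849 for CTNNB1 and 0.7402 for PCDH20. Of the 60 genes, 1 differed upward (1.67%, against 3.9% of all rows) and 4 downward (6.67%, against 4.44%). Of the 5 calls, 0 held in all alternatives, and 4 were lost in fits that left out a single sample. The F test of whether the effect differed among the times called 0 of the 60. The part of these 5 differences due to hair cell or stromal RNA was not tested.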

How the results depend on the processing

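No effect of a junction gene that was called changed sign under any alternative run. Over all times 10 of the 29 calls held in all 68 alternatives, among them CTNNB1, CLDN5, DSG2, PCDH7, PCDH8, PCDH9, PCDH20 and CDH20. Counts that moved by over 1.5 times were, with the replicate block, 11 higher and 8 lower at 0 and 24 h, 13 higher at 48 to 72 h, 10 lower at 96 to 168 h, and 3 higher and 10 lower for late minus early. Quantile normalization gave 2 higher and 7 lower at 0 and 24 h, 4 higher at 96 to 168 h and 2 higher for late minus early. Trimmed-mean scaling gave 4 higher at 96 to 168 h and 11 higher for the control comparison. Repeat libraries entered separately gave 10 higher and 9 lower at 0 and 24 h and 8 lower for late minus early, and libraries of 5000000 or more alignments alone gave 3 higher for late minus early.

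Leaving out samples, singly or by replicate number, moved the counts over all times to between 3 and 17 higher and between 7 and 14 lower, both lowest without replicate 2. At 0 and 24 h they ran from 0 to 7 higher and 2 to 7 lower, at 48 to 72 h from 2 to 8 and 4 to 11, and at 96 to 168 h from 0 to 8 and 4 to 7. Late minus early ran from 0 to 1 higher and 0 to 6 lower, and the control comparison from 3 to 9 higher and 2 to 7 lower. Single samples also moved counts by over 1.5 times. At 0 and 24 h, 2 were higher without control replicate 1 of 0 h or treated replicate 3 of 24 h and 7 without control replicate 4 of 24 h, while 2 were lower without treated replicate 1 of 0 h and 7 without control replicate 3 of 168 h. At 96 to 168 h, 4 were higher without treated replicate 2 of 96, 120 or 144 h or, from the control arm, without the third sample of 120 h, the first of 144 h or the second of 168 h. For late minus early, 0 were higher without replicate 2 of the control samples of 0 h, treated replicate 1 of 0 h or treated replicate 1 of 24 h, and the lower count was 2 without replicate 1 of the control samples of 0 h and 1 without treated replicate 1 of 0 h. In the control comparison 3 were lower without either sample of 0 h. Replicates left out by number remove a sample from most groups, which leaves fewer samples. The counts of fits that left out samples stand without shares over all rows, so they describe stability only. The block gives no value for the control comparison. Low-depth libraries make values under about 1 RPKM coarse, which touches CDH7, CDH19, CDH20, CLDN10, PCDH8 and CDH5.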

Other observations

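Regulators of epithelial and mesenchymal cell state were listed with the junction partners. Of the zinc finger repressors of CDH1 known from mammals, ZEB1 rose by 0.43 ± 0.07, ZEB2 by 0.59 ± 0.14 and SNAI2 by 0.55 ± 0.16 over all times (limma adjusted p = 9.4e-06, 0.001 and 0.00677), and at 96 to 168 h they rose by 0.72, 0.96 and 1.18. SNAI1 had an effect of 0.26 ± 0.16 and was not called. Among the grainyhead factors, which maintain epithelial junction genes in mammals, GRHL3 rose by 0.47 ± 0.10, GRHL1 fell by 0.31 ± 0.12 and GRHL2, at 0.05 ± 0.10, was not called. Stromal markers were higher in the same late window (11 of 16), as were supporting cell markers (6 of 10) and members of other lists. The part of these in the rises of ZEB1, ZEB2 and SNAI2 was not tested.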
